A study of Mus musculus with 15 samples.

Results

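The 10 genes described here are Trp53, 8 genes whose transcription p53 can activate (Mdm2, Ccng1, Bax, Bbc3, Phlda3, Gadd45a, Sesn2 and Trp53inp1) and Mgmt, which encodes the enzyme that removes alkyl groups from guanine. They were found by the gene name that the scanner files give to each probe that is not a control, which gave 11 probes of 55681 and 10 gene symbols of 22032. The question was whether a response to DNA damage could still be seen in the liver months after the carcinogen diethylnitrosamine (DEN).

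Livers of male CD1 mice were hybridised to 15 single-colour arrays, on which 59305 spots were not controls. Group C was the control with saline in place of DEN and an empty plasmid (4 arrays, 3 mice). Group T had DEN followed by the empty plasmid (5 arrays, 4 mice). Group G had DEN followed by a plasmid that encodes the growth arrest gene Gas1 (6 arrays, 6 mice). By the study's methods, DEN was given once at 25 µg per g of body weight 15 days after birth, 50 µg of plasmid was pushed into the liver by rapid injection into the tail vein (hydrodynamic gene delivery) in weeks 28 to 34, and livers were collected in week 35. The labels state an age of 10 weeks instead. All 3 groups thus share the injections of plasmid and groups T and G share DEN. The study reports liver tumours in every mouse given DEN. In whole liver, a lasting response to DEN and the presence of tumour tissue therefore cannot be told apart. Gas1 itself differed by 0.079 ± 0.078 (log2, SE) between G and T (limma, adjusted p = 0.765). Whether its probes lie in the insert of the plasmid is not given in the sources used here, so Gas1 did not check the labels of group G.

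p53 is a transcription factor that is kept low by the ubiquitin ligase Mdm2 and is stabilised after DNA damage. It then raises the transcription of Mdm2 itself, of genes that slow the cell cycle (Ccng1, Gadd45a), of genes that start cell death at the mitochondrion (Bax, Bbc3), and of genes that restrain growth signalling (Phlda3, Sesn2). DEN is activated by cytochrome P450 enzymes of the hepatocyte to a compound that ethylates DNA, and Mgmt reverses the alkyl adduct on the oxygen of guanine. Much of the control of p53 acts on the protein, which an array of transcripts does not measure.

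To show what the control regions of the targets look like, the 250 bases upstream of the gene start were taken from RefSeq (GRCm38.p6), which held 9 of the 10 members. Trp53inp1 was the missing one. The windows were searched for the p53 half-site consensus, a palindrome of 10 bases of which p53 binds 2 copies. An exact match stood in at least 1 window of 5 of these 9 genes (Trp53, Mdm2, Ccng1, Bax and Gadd45a), and in 7.13% of all 32851 windows. Shown are the window of Phlda3, the member that differed most between the groups, and those of 3 classic targets that hold a match. Capitals mark half-sites. In Bax they mark a pair of half-sites 5 bases apart with 2 mismatches in all, a form found in 1.75% of all windows.
Phlda3, chr1:135765835-135766084, + strand: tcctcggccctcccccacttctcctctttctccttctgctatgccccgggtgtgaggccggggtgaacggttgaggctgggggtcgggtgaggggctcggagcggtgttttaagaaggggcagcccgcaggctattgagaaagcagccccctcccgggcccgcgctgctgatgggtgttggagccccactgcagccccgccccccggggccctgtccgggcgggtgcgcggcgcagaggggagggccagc
Mdm2, chr10:117710759-117711008, - strand: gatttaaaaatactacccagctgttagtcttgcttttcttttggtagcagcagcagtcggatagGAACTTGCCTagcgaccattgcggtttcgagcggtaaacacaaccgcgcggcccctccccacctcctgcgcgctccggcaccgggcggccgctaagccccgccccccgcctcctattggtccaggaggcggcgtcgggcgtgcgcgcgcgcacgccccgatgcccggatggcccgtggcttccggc
Ccng1, chr11:40755287-40755536, - strand: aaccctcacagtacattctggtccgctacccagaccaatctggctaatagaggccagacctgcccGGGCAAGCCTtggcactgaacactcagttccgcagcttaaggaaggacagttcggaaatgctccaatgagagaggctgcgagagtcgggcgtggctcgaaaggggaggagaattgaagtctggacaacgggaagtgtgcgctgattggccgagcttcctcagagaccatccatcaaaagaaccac
Bax, chr7:45466899-45467148, - strand: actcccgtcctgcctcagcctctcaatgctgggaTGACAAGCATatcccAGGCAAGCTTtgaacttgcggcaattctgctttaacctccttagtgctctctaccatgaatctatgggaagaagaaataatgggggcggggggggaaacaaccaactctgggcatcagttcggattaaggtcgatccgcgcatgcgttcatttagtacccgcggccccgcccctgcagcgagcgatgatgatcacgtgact
The window of Phlda3 held no exact half-site, and neither did those of Bbc3, Sesn2 and Mgmt. A match is a string of letters and was not tested for binding, and p53 sites also lie in introns and farther upstream, outside these windows.

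All levels below are log2 normalized intensities, and a difference of 1 is a doubling. A spot is called well above background when the scanner software finds its signal above that of the local background. The number of such spots was between 15707 and 29765 per array, with 15707 on the array of C mouse 2. Both slides held arrays of all 3 groups. Arrays of 1 RNA code were averaged as 1 mouse, since their SD of log2 differences was 0.145 in C and 0.143 in T, against at least 0.290 and 0.234 for the other pairs of arrays of those groups. The liver identity was borne out by hepatocyte markers, of which 6 of 6 were well above background on every array. In RNA of whole liver, fewer cells of a type and less RNA per cell cannot be told apart.

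Of the members, 8 were well above background on all 15 arrays. Trp53 was so on 14 arrays, and Phlda3 on 13, as it was on 2 of the 4 arrays of group C. No spot of a member was an outlier or saturated.

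None of the 10 members passed an adjusted p of 0.05 in any of the 4 comparisons (limma, Benjamini-Hochberg over 22032 genes), which were T against C, G against T, G against C, and the mean of T and G (DEN-treated) against C. These comparisons share mice and are not independent. Over all genes the same rule called 2.37% in T against C, 0.132% in G against T, 0.427% in G against C and 1.53% in DEN-treated against C. At an unadjusted p under 0.05, 2 members stood out in T against C (Phlda3 higher and Mgmt lower), where 20.2% of all genes did. At this level there were 2 in G against C and 2 in DEN-treated against C (Phlda3 and Sesn2, both higher), where 13.3% and 18.4% of all genes did, and 0 in G against T, where 10.8% did. The share of members at that level was thus near the share of all genes. The methods' t-test found Phlda3 in T against C, Phlda3 and Sesn2 in G against C, and Phlda3 in DEN-treated against C at p under 0.05, where it found 17.4%, 10.2% and 15.2% of the genes it could test, and 0 members after adjustment. Mice of T and C did not overlap for 2 members (Phlda3 and Mgmt), as for 19.1% of all genes.

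**Figure D1:**
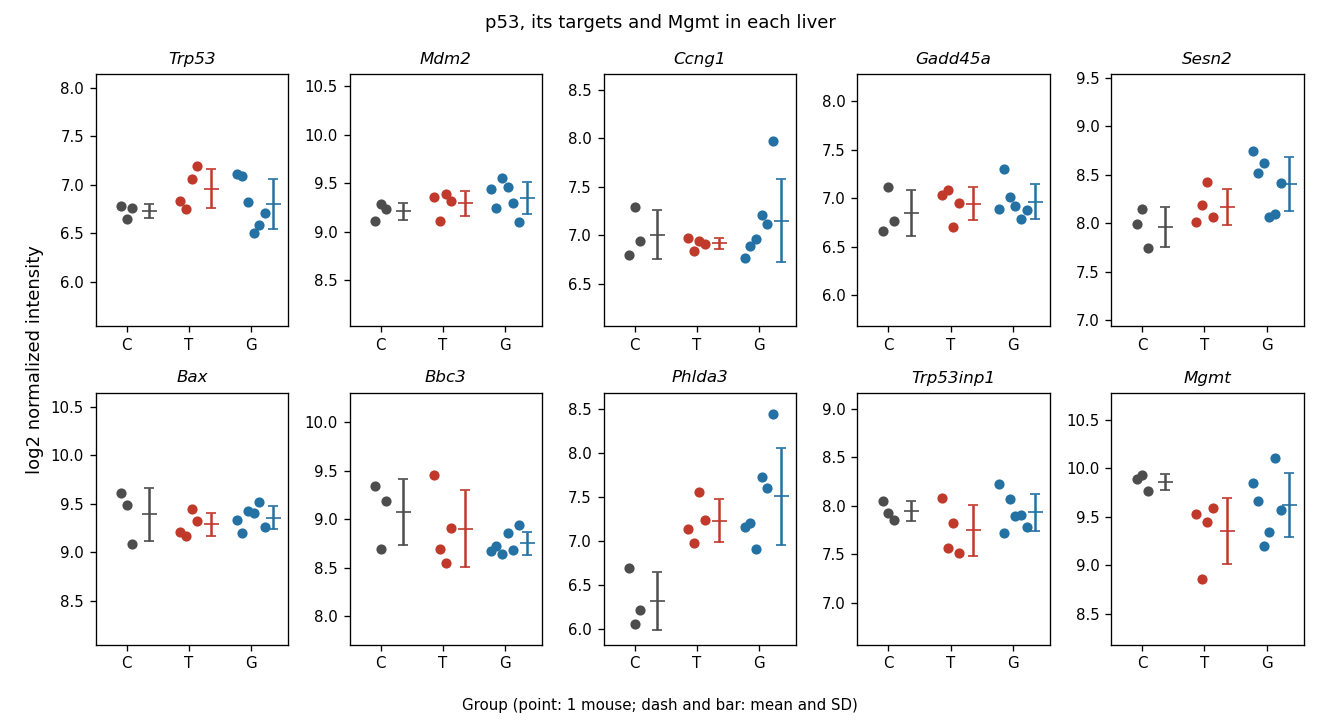
Levels of the 10 members in each liver (y axis: log2 normalized intensity, each panel on its own range; x axis: group C, T or G). Points are the 13 mice, and the dash with its bar is the mean with SD. Phlda3 was higher in all 10 DEN-treated mice than in the 3 mice of group C, and most other members overlapped between all groups.

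Phlda3, which encodes a small protein with a pleckstrin homology domain that competes with the kinase Akt for membrane lipids, had the largest difference among the members. Its probe lies at chr1:137665642-137665701 on the + strand (mm9). The levels were 6.69, 6.06 and 6.21 in the C mice, 7.14, 6.98, 7.56 and 7.24 in the T mice, and 6.91 at the lowest, 7.41 at the median and 8.45 at the highest of the 6 G mice. The lowest DEN-treated mouse thus lay above the highest control mouse, and G mouse 6 lay well above the other G mice. That mouse also had the highest level of the stellate cell marker Des (8.58, against 6.13 to 6.62 in the other G mice) and of the cholangiocyte marker Spp1 (8.02, against 7.16 to 7.75). Its other stellate markers Lrat (6.13), Reln (6.90) and Pdgfrb (6.81) lay within the range of the other G mice. So did the cholangiocyte markers Krt7 (6.35) and Sox9 (6.10), while Krt19 (6.87) and Epcam (6.41) were the highest measured in G. The part of these markers in its Phlda3 level was not tested. All DEN-treated mice lay above the control mice, as for Phlda3, for 1.71% of all genes.

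The means of Phlda3 were 6.32 ± 0.33 (SD, n = 3) in C, 7.23 ± 0.25 (n = 4) in T and 7.51 ± 0.55 (n = 6) in G. The difference was 1.05 ± 0.26 (log2, SE) for DEN-treated against C, a fold of 2.07, with a 95% interval from 0.49 to 1.61 and an adjusted p of 0.0617 by limma. That placed it at the 99.8th percentile of all differences. The separate values were 0.91 ± 0.30 for T against C (adjusted p = 0.118) and 1.19 ± 0.28 for G against C (adjusted p = 0.0899, limma). Between G and T the difference was 0.28 ± 0.25 (adjusted p = 0.741), with an interval from -0.27 to 0.83.

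Whether Phlda3 passed the threshold for DEN-treated against C depended on the processing. Its direction was the same in the 31 settings run for this comparison, which reuse the same mice. Since the mice did not overlap, leaving out 1 of them could not turn the sign. It passed with limma under a normexp offset of 16 (1.52, adjusted p = 0.0337), with probes dim on nearly all arrays left out (adjusted p = 0.0396) and with the slide as a term (1.05, adjusted p = 0.0361). It passed with the 15 arrays as separate samples (adjusted p = 0.0107), which counts repeat arrays of 1 RNA as separate mice. With median scaling it passed (adjusted p = 0.0268) where 3937 genes were called higher. It also passed without G mouse 6 (0.95, adjusted p = 0.0247). The adjusted p over the alternatives that used both slides and every mouse ran from 0.0107, with the 15 separate arrays, to 0.249. The difference grew to 2.46 with the processed signal of the scanner software, to which no offset was added. The reason for this growth was not tested. In group C the probe was dim, as given above. Within slide 1 the difference was 1.28 (adjusted p = 0.309) and within slide 2 it was 0.85 (adjusted p = 0.0842).

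**Figure D2:**
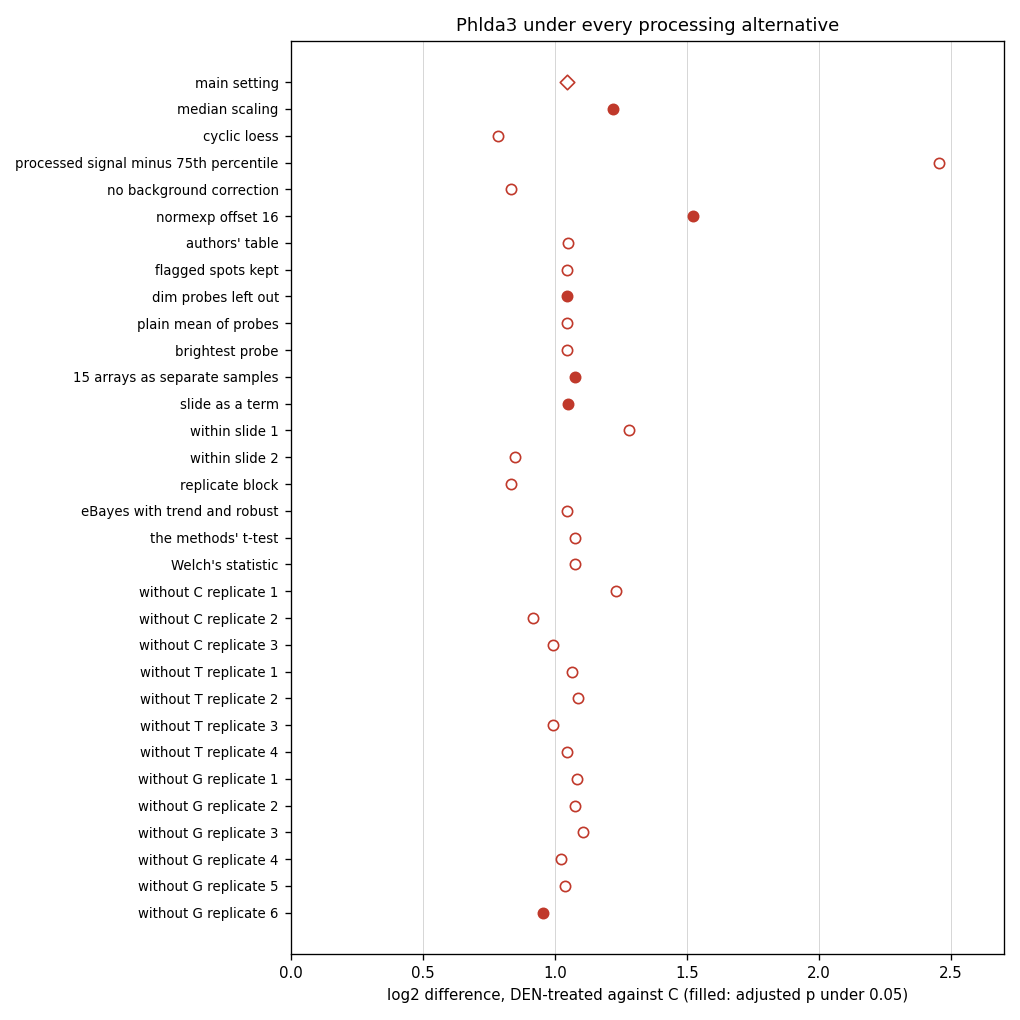
Difference of Phlda3 between DEN-treated and control livers (x axis, log2) under the main setting (diamond) and each alternative (circles, y axis), filled where the adjusted p was under 0.05. Every value lies above 0, from 0.79 with cyclic loess to 2.46 with the processed signal, and 6 of the alternatives are filled.

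Trp53 itself overlapped between the groups. Its levels were 6.78, 6.64 and 6.76 in C, 6.84, 6.75, 7.06 and 7.19 in T, and from 6.50 to 7.11 in G with a median of 6.76. The SD between mice was 0.20 in T and 0.26 in G against 0.075 in C, which held 3 mice, and this spread was not tested. Among other members the SD of C was below those of T and G for Mdm2 and Mgmt. It was above both for Bax and Gadd45a. The difference for T against C was 0.23 ± 0.15 (limma, adjusted p = 0.437) and that for DEN-treated against C was 0.15 ± 0.13 (adjusted p = 0.59), with an interval from -0.13 to 0.43. The probe of Trp53 is printed on 2 spots of each array (chr11:69404204-69404263, mm9).

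Mdm2, the inhibitor of p53 and one of its most direct targets, varied little between mice. Its levels were 9.11, 9.29 and 9.23 in C, 9.36, 9.11, 9.39 and 9.32 in T, and from 9.11 to 9.56 in G with a median of 9.37. The groups overlapped throughout. The difference for DEN-treated against C was 0.11 ± 0.089 (limma, adjusted p = 0.559). Its 95% interval, from -0.082 to 0.30, leaves out a rise as large as the one measured for Phlda3. With median scaling, where most detected genes shift upward, the difference was 0.95 (adjusted p = 0.0449), and 0.35 relative to the median of detected genes.

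Among the targets that act on the cell cycle, Ccng1, which encodes cyclin G1, a cofactor that helps keep Mdm2 active, had levels of 6.80, 7.29 and 6.94 in C and 6.97, 6.84, 6.94 and 6.91 in T. In G they ran from 6.77 to 7.97 with a median of 7.04, and the highest was again mouse 6. The difference for DEN-treated against C was 0.026 ± 0.19 (limma, adjusted p = 0.963). Gadd45a, which encodes a stress sensor that binds PCNA and inhibits the mitotic kinase Cdk1, had levels of 6.66, 7.12 and 6.77 in C, 7.03, 7.08, 6.70 and 6.95 in T, and from 6.79 to 7.31 in G with a median of 6.91. Its difference was 0.10 ± 0.12 (adjusted p = 0.698). With median scaling the difference of Gadd45a was 0.44 (adjusted p = 0.0325), and -0.17 relative to the median of detected genes. The groups overlapped for both genes.

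The death genes had differences below 0. Bax, which forms pores in the outer mitochondrial membrane, had levels of 9.61, 9.49 and 9.09 in C, 9.21, 9.17, 9.44 and 9.32 in T, and from 9.20 to 9.52 in G with a median of 9.37. Its difference for DEN-treated against C was -0.071 ± 0.10 (limma, adjusted p = 0.767). Bbc3, which encodes Puma, an activator of Bax, had levels of 9.34, 8.69 and 9.18 in C, 9.46, 8.69, 8.55 and 8.91 in T, and from 8.64 to 8.93 in G with a median of 8.70. Its difference was -0.25 ± 0.17 (adjusted p = 0.473), with 1 DEN-treated mouse above all control mice and 5 below them. With median scaling both differences were positive, at 0.79 for Bax (adjusted p = 0.0461) and 0.55 for Bbc3 (adjusted p = 0.221), or 0.18 and -0.055 relative to the median of detected genes.

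Sesn2, which encodes sestrin 2, an inhibitor of mTORC1 under stress, had the second largest positive difference for DEN-treated against C among the members. Its levels were 7.995, 8.15 and 7.74 in C, 8.01, 8.19, 8.42 and 8.06 in T, and from 8.06 to 8.75 in G with a median of 8.47. The T mice overlapped the control mice, and 4 of the 6 G mice lay above all of them. For G against C the difference was 0.45 ± 0.15 (limma, adjusted p = 0.229) and for T against C it was 0.21 ± 0.17 (adjusted p = 0.532). The difference between G and T was 0.24 ± 0.14 (adjusted p = 0.576) and did not pass the test. For DEN-treated against C it was 0.33 ± 0.14 (adjusted p = 0.25), 0.32 within slide 1 and 0.43 within slide 2. With median scaling it was 1.01 (adjusted p = 0.0265), and 0.41 relative to the median of detected genes. Trp53inp1, which encodes a nuclear protein that promotes p53 activity in stress and takes part in autophagy, was measured by 2 probes. Its levels were 8.06, 7.93 and 7.85 in C, 8.08, 7.57, 7.83 and 7.51 in T, and from 7.72 to 8.23 in G with a median of 7.90. The probes gave -0.15 and -0.24 for T against C, and together -0.20 ± 0.14 (adjusted p = 0.475).

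Mgmt, the repair enzyme that acts on alkylated guanine, had the lowest difference among the members for T against C. Its levels were 9.89, 9.93 and 9.77 in C, and 9.53, 8.86, 9.45 and 9.59 in T, so all 4 T mice lay below the control mice. In G they ran from 9.20 to 10.11 with a median of 9.62 and overlapped both other groups. Mice of T lay wholly below those of C for 8.72% of all genes. The difference for T against C was -0.51 ± 0.21 (limma, adjusted p = 0.194), a ratio of 0.704, with an interval from -0.96 to -0.058. It was -0.60 within slide 1 and -0.35 within slide 2, and it came to -0.53 with the slide as a term (adjusted p = 0.0665). For G against T it was 0.26 ± 0.17 (adjusted p = 0.628) and for DEN-treated against C -0.37 ± 0.18 (adjusted p = 0.29). With median scaling the sign for T against C turned (0.43), and relative to the median of the 8479 genes well above background on all arrays it was then -0.22.

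**Figure D3:**
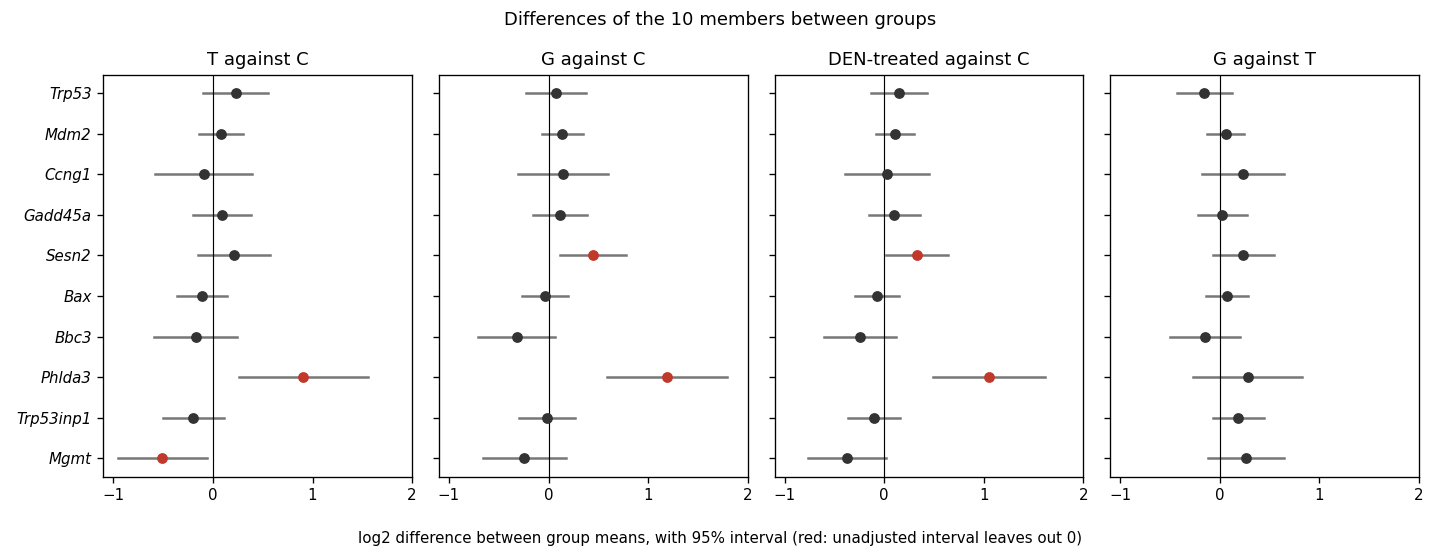
Differences between group means (x axis, log2) of the 10 members in the 4 comparisons, each with its 95% interval. Red marks the intervals that leave out 0 before adjustment, which are those of Phlda3 in 3 comparisons, Sesn2 in 2 and Mgmt in 1, and none passed the adjusted test.

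The choice of scaling bears on all of these values. When arrays were scaled to a common median instead of quantile normalized, the median difference of T against C over all genes moved from 0.0053 to 0.12, and that of the 8479 genes well above background on all arrays moved from 0.0066 to 0.65. The calls over all genes then went from 259 higher and 264 lower to 2861 higher and 15 lower. Relative to that median of detected genes, Phlda3 stood at 0.90 in the main setting, 0.47 with median scaling, 0.65 with cyclic loess and 2.22 with the processed signal. Phlda3 was well above background on 13 arrays and is thus not itself among those genes. In the processed signal the median over all genes was -0.40.

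The differences of the members for T against C were positive in 5 and negative in 5, with a median of -0.0054, against 0.0053 over all genes. For G against T, 8 were positive and 2 negative, with a median of 0.13 against -0.0084 over all genes, and none passed the test. The mean of the 8 targets, as a distance from the mean of C, lay between -0.093 and 0.063 in the C mice, between -0.016 and 0.19 in the T mice and between 0.13 and 0.38 in the G mice. Without Phlda3 the ranges were -0.091 to 0.072, -0.11 to 0.097 and -0.0048 to 0.13, which overlapped. Between pairs of members, Pearson correlations over the 13 mice ran from -0.64 (Bbc3 with Sesn2) to 0.53 (Ccng1 with Phlda3), and the points share their arrays and groups. The genes whose levels followed Trp53 most closely over the 13 mice, among 7945 genes measured and well above background on all arrays, were Lrba (r = 0.94), Gm672 (r = 0.94) and Rrp1 (r = 0.91). Those of Mdm2 were Nprl3, Chuk and Slc35d2 (r = 0.88 each). Those of Mgmt were 1300010F03Rik (r = 0.89), Ugp2 (r = 0.88) and Hsd17b10 (r = 0.86). For Phlda3, added after its values were seen, they were Ptpn18 (r = 0.89), Arrb1 (r = 0.89) and Tpm4 (r = 0.87).

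Beyond the members, 91 further genes in 5 lists cover the rest of the pathway. They are 25 other p53 targets, 18 regulators of p53, 18 genes of alkylation and base excision repair, 8 of mismatch repair and 22 of the damage checkpoint. The lists were chosen with earlier results of these data known, so their share of calls is not an independent test. In T against C, 8 of the 91 passed the test (8.79%, against 2.37% of all genes), of which 5 rose and 3 fell, where 1.18% of all genes rose and 1.2% fell. In DEN-treated against C, 3 rose and 0 fell (3.3%, against 1.53%, or 0.613% higher and 0.917% lower, of all genes), and in G against T and G against C limma called 0, with 8 and 22 of them at an unadjusted p under 0.05, where 10.8% and 13.3% of all genes were. The median difference for T against C was 0.058 for the other p53 targets, 0.12 for the regulators, of which 12 of 18 were higher, -0.049 for alkylation and base excision repair, -0.055 for mismatch repair and 0.020 for the checkpoint, against 0.0053 over all genes.

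**Figure D4:**
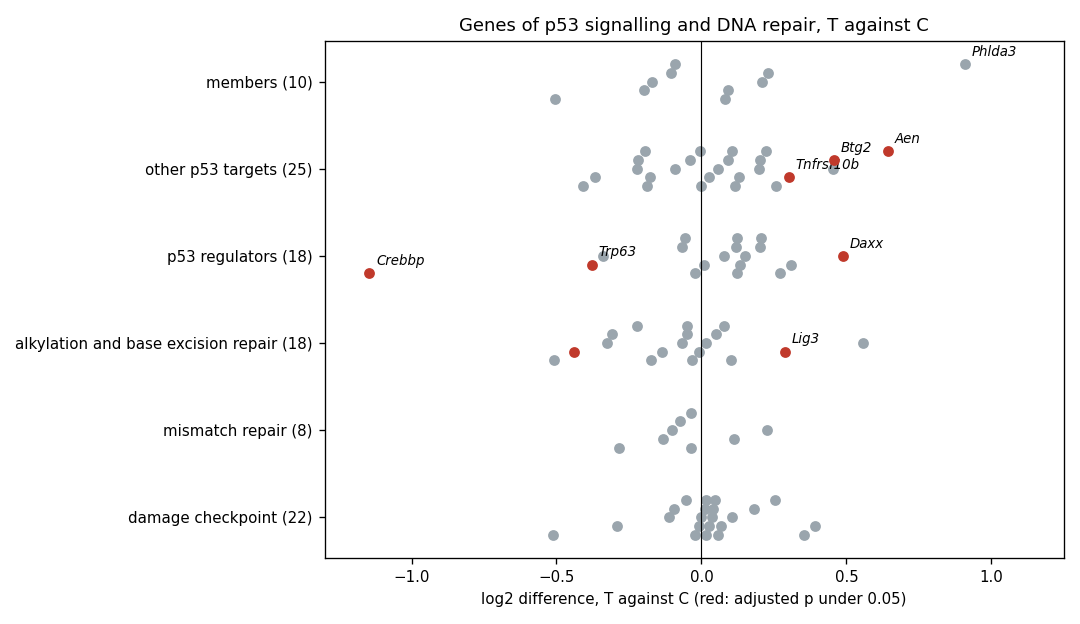
Differences between T and C (x axis, log2) of the members and of the 5 lists (y axis, number of genes in brackets). Red points passed an adjusted p of 0.05, and those with a name are described in the text. Points lie on both sides of 0 in every list, and Phlda3 is the rightmost point of all.

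Among the other p53 targets, 3 of 25 rose in T against C and 0 fell. Aen, which encodes a nuclease that acts in p53-dependent cell death, had levels of 10.28, 9.95 and 9.81 in C, 10.49, 10.47, 10.81 and 10.86 in T, and from 10.42 to 10.79 in G. All 10 DEN-treated mice lay above the control mice, as they did for 1.71% of all genes. The difference was 0.64 ± 0.13 for T against C (limma, adjusted p = 0.0301) and 0.60 ± 0.11 for DEN-treated against C (adjusted p = 0.0298). Tnfrsf10b, the mouse death receptor for the ligand TRAIL, also lay higher in all 10. It was well above background on 0 arrays of C, 2 of T and 4 of G, so its signal was dim in both DEN-treated groups too. The difference was 0.30 ± 0.054 for T against C (limma, adjusted p = 0.0199). With levels this near background, its size is uncertain. Btg2, which slows entry into the cell cycle, rose by 0.46 ± 0.096 in T against C (adjusted p = 0.0321) and was dim in C, where 1 of 4 arrays had it well above background. Plk3, a stress kinase, was at 0.46 ± 0.36 for T against C (adjusted p = 0.526).

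Cdkn1a, the best known p53 target of the cell cycle, encodes the inhibitor p21 and was singled out after its values were seen. Its levels were 7.12, 6.76 and 6.61 in C, 6.67, 6.30, 6.39 and 6.33 in T, and from 6.34 to 6.71 in G. Of the 10 DEN-treated mice, 8 lay below the lowest control mouse. The difference was -0.41 ± 0.13 for T against C (limma, adjusted p = 0.102) and -0.37 ± 0.11 for DEN-treated against C (adjusted p = 0.0999), so it did not pass the test and its sign was opposite to that of Phlda3 and Aen.

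Among the regulators, Daxx, a histone chaperone that binds p53 and Mdm2, rose by 0.49 ± 0.089 in T against C (limma, adjusted p = 0.0199). Its levels were 9.04, 8.89 and 9.26 in C and 9.59, 9.47, 9.56 and 9.60 in T. Trp63, a gene of the p53 family, fell by 0.38 on the log2 scale (SE 0.080, adjusted p = 0.0321). Crebbp, which encodes an acetyltransferase that acts as a coactivator of p53, fell by 1.15 (SE 0.27, adjusted p = 0.0457). Its levels were 11.62, 12.08 and 10.89 in C and 10.66, 10.94, 10.03 and 9.91 in T, so 1 T mouse overlapped the control mice.

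In alkylation and base excision repair, Lig3, which encodes a ligase that seals single strand breaks, rose by 0.29 ± 0.061 in T against C (limma, adjusted p = 0.0322). It is also in a gene list that the study drew from these same samples, so its call is not independent of that list. Alkbh2, a dioxygenase that reverses alkyl adducts directly, as Mgmt does by another route, was at 0.56 ± 0.14 for T against C (adjusted p = 0.0529). It lay above the control range in all 4 T mice. Mice of T and C did not overlap, in either direction, for 19.1% of all genes. Nthl1, a glycosylase for oxidised bases, was at -0.51 ± 0.15 (adjusted p = 0.0829). Mgmt and Alkbh2, which both repair alkylated bases without excision, thus had differences of opposite sign, and neither passed the test. No gene of mismatch repair or of the damage checkpoint passed in any comparison. In the checkpoint, the pair with the largest differences in T against C was Gadd45g (-0.51 ± 0.65) and H2afx (0.39 ± 0.17).

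**Figure D5:**
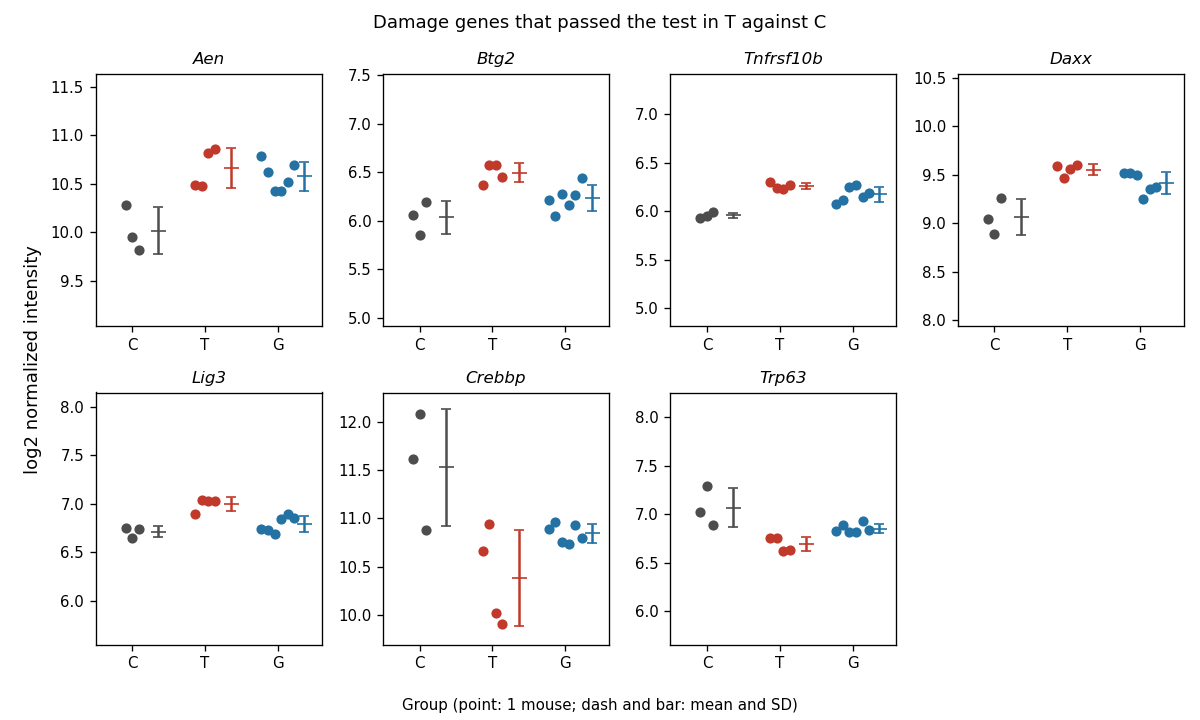
Levels of 7 genes outside the members that passed the test in T against C (y axis: log2 normalized intensity; x axis: group). Points are mice, and the dash with its bar is the mean with SD. Aen and Tnfrsf10b lie above the control mice in both DEN-treated groups, and Lig3 and Btg2 are higher in T than in C while G overlaps C.

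These 8 calls rested on few mice, as did those over all genes, which numbered 523 and then 95 to 746 with a mouse left out. Without C mouse 1 there was 1 call in T against C, and there were 0 without C mouse 2, T mouse 3 or T mouse 4 and 4 without T mouse 2. Within slide 1 and within slide 2, limma called 0 of the 91 genes, and 46 and 17 of all genes. Each of the 8 kept its sign there (Aen 0.77 and 0.68, Daxx 0.41 and 0.47, Crebbp -1.09 and -1.03). With the slide as a term all 8 passed, where 814 of all genes did. With median scaling Crebbp came to -0.17, and relative to the median of detected genes it was then at -0.82. Btg2, Tnfrsf10b and Lig3 were at 0.43, 0.27 and 0.58 and still passed. Relative to that median they were at -0.22, -0.37 and -0.070. They were well above background on only 9, 6 and 14 of the 15 arrays, so they are not among the genes of that median. Over all genes the median for T against C with median scaling was 0.12. Aen, Daxx and Trp63, which were detected on every array, kept their sign relative to the median of detected genes (0.97, 0.71 and -0.77).

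Markers of cell types were read beside these values. The macrophage marker Emr1 rose by 0.31 ± 0.060 in T against C (limma, adjusted p = 0.0267). It was dim in C, where 2 of 4 arrays had it well above background. With median scaling Emr1 was at 0.33 (adjusted p = 0.0304). Relative to the median of detected genes, to which Emr1 does not belong, it was then at -0.32. Of the other macrophage markers Marco was at 0.83 (adjusted p = 0.173), Csf1r at 0.063, Clec4f at -0.059 and Cd68 at -0.25 (adjusted p = 0.101), and the mean level of the 5 ran from 7.27 to 7.55 in C, from 7.49 to 7.67 in T and from 7.40 to 7.79 in G. The hepatocyte product Ttr fell by 1.00 (SE 0.12, adjusted p = 0.00425) as 1 of 6, but was at -0.61 in the authors' table (adjusted p = 0.106), at -0.70 from the processed signal (adjusted p = 0.0827) and at 0.18 with median scaling (adjusted p = 0.718). Of the other hepatocyte markers Apoa1 was at 0.55 (adjusted p = 0.0657), Tat at 0.23, Apob at -0.12, Cps1 at -0.30 and Alb at -0.36 (adjusted p = 0.163), with the mean of the 6 from 14.43 to 14.64 in C, from 14.30 to 14.58 in T and from 14.31 to 14.74 in G. No marker of proliferating cells, cholangiocytes, lymphocytes, endothelial or stellate cells passed in T against C. Of the 5 proliferation markers, 2 stood clear of background on no array. The part of cell composition in the differences of Phlda3, Mgmt, Aen and the other genes was not tested.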

How the data were processed

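Liver RNA of 13 mice was measured on 15 single-colour arrays. The authors deposited the scanner output of Feature Extraction, which gives the intensity of each spot and of its background without normalization between arrays, and a table of log2 values after normexp correction and quantile normalization, used here as an alternative. From the intensities, log2 values were computed after normexp correction of the mean signal (offset 50), and the arrays were then quantile normalized. Spots with outlier flags (218 to 3692 per array) were set to missing, and control spots were left out. Spots of a probe were averaged, and probes of a gene were centred and averaged, which gave 22032 genes. Against the authors' table, 99% of values lay within 0.05. The offset compresses differences of dim probes, such as that of Phlda3 in group C.

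Groups were compared in R 4.3.3 by limma 3.58.1, with 1 mean per group, eBayes without trend and Benjamini-Hochberg adjustment over all genes. The calculation was tested on simulated data. Groups came from the sample titles, and arrays of 1 RNA code were 1 mouse. All members are described. Of the other lists, genes past an adjusted p of 0.05 and the 2 with the largest difference of T against C among those detected on all arrays are named, except for 3 genes that count in their lists but are not reported here. The members and lists were chosen with earlier results of these data known. Alternatives covered background, scaling, probes, slides, tests and left-out mice. Arrays give no read depth, so the number of mice limits the precision. Probe positions are those of the files (mm9), which were not placed in exons here.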

Additional observations from a re-analysis of the deposited data

Results flagged for a closer look

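Of 54 sets of values of a gene in a group of 4 to 6 mice, 2 held a mouse far from the others by Dixon's criterion, which chance gives for about 1 in 20 sets. Ccng1 in G mouse 6 was at 7.97, and the next highest G mouse was at 7.21. The same mouse had the highest Phlda3 (8.45) of all mice, and the highest Des (8.58) and Spp1 (8.02). Its other stellate and cholangiocyte markers were not all high. Lig3 in T mouse 1 was at 6.89, below 7.03 in the nearest T mouse.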

How the results depend on the processing

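With each of the 13 mice left out in turn, the number of members past the threshold was 0 to 1 in T against C, G against C and DEN-treated against C, and the 1 was Phlda3 without G mouse 6. For the 91 other genes it was 0 to 9 in T against C, 0 to 1 in G against C and 0 to 6 in DEN-treated against C. Over all genes T against C gave 523 calls, and between 95 and 746 with a mouse left out. With a mouse left out, G against C gave 8 to 202 and DEN-treated against C gave 37 to 571. Leaving out a mouse turned the sign of Ccng1 (T against C, -0.20 to 0.048, and DEN-treated against C, -0.081 to 0.17), Bax (-0.26 to 0.0033 and -0.23 to 0.039), Gadd45a (T against C, -0.0024 to 0.23) and Mdm2 (G against T, -0.0032 to 0.11). Without the array with the fewest spots well above background (C mouse 2, chosen after seeing the data), 0 members passed in T against C and in DEN-treated against C.

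Members past the threshold with median scaling numbered 2 in T against C (Phlda3 and Sesn2) and 5 in DEN-treated against C (these, Mdm2, Bax and Gadd45a). Of all 22032 genes, that setting called 2876 and 3968 in these comparisons. With offset 16 the members past the threshold numbered 1 in each of G against C and DEN-treated against C (99 and 351 over all genes). With 15 arrays as separate samples there was 1 in each of T against C, G against C and DEN-treated against C. All genes gave 1949, 338 and 1307 calls there. With the slide as a term there was 1 in each of G against C and DEN-treated against C (181 and 574 over all genes). With dim probes left out there was 1 in DEN-treated against C (573 of 13047 genes). For the lists in T against C, the 8 calls became 3 with cyclic loess, 0 with the processed signal and 17 with 15 arrays. They became 0 within either slide, 2 with only the compared groups and 0 with the methods' t-test or Welch's statistic. Over all genes the 523 calls went to 186 with cyclic loess, 57 with the processed signal and 1949 with 15 arrays. They went to 46 within slide 1, 17 within slide 2 and 359 with only the compared groups. With either of the 2 tests they went to 0, so no list gene could pass there. The 3 list calls in DEN-treated against C became 18 with median scaling and 0 with the processed signal. They became 9 with dim probes left out, 5 with the brightest probe and 11 with 15 arrays. With the slide as a term there were 7, and 0 within either slide or with the t-test. Over all genes the 337 calls went to 3968, 23, 573, 383, 1307 and 574 in the same order. Within slide 1 all genes gave 4 calls, within slide 2 they gave 61, and with the t-test 16. The lists gave 1 call in G against T and 3 in G against C with 15 arrays, and 1 in G against C with the slide as a term. All genes gave 268, 338 and 181 calls there. The cause was not tested, except that separate arrays add samples and single slides remove them.

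With median scaling, signs turned in T against C for Ccng1 (0.31), Bax (0.81), Bbc3 (0.67), Mgmt (0.43), Trp53inp1 (0.47) and Ttr (0.18), in DEN-treated against C for Bax (0.79), Bbc3 (0.55), Mgmt (0.51), Trp53inp1 (0.54) and Ttr (0.32), in G against T for Mdm2 (-0.034) and in G against C for Mgmt (0.59). With the processed signal they turned for Bax (0.046 in T against C, 0.018 in DEN-treated against C) and Mdm2 (-0.093 in G against T), and with 15 arrays for Bax in DEN-treated against C (0.010). Within slide 1 they turned for Mdm2 in T against C (-0.047), Trp53 in G against C (-0.039) and Bax in DEN-treated against C (0.033), and within slide 2 for Ccng1 in T against C (0.054) and Mdm2 in G against T (-0.023).

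Groups share replicate numbers in the titles. Same-numbered mice had correlations of their deviations between -0.31 and 0.25, over 0.1 in 4 of 10 pairs. For mice of different numbers they ran from -0.33 to 0.41, over 0.1 in 9 of 44 pairs. These few pairs cannot decide whether mice share more than a number. With the replicate number as a block, calls over all genes went from 523 to 278 in T against C. In DEN-treated against C they went from 337 to 224. List calls went to 2 in T against C and 0 in DEN-treated against C, and Ccng1 in DEN-treated against C to -0.11. No member passed with it.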
